A study of Homo sapiens with 18 samples.

Results

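HT29 colorectal cancer cells that had been exposed to the RAF kinase inhibitor PLX4720 were compared with cells that had received the solvent DMSO, at the time point labelled day 3. The comparison rests on 4 of the 18 arrays of the series, 2 for each treatment, and on 12675 genes that were detected on at least 2 of the 12 HT29 arrays. HT29 is an established human cell line derived from a colorectal adenocarcinoma, and the series title describes the cells as BRAF mutant. Both groups were grown in Matrigel, a basement membrane gel, in DMEM with fetal calf serum. From culture day 5 the medium held 3 µM PLX4720 or DMSO and was renewed every few days, and the cells were freed from the gel before total RNA was taken. The day in the labels was read as the day of treatment. The series design describes the HT29 replicates as biological duplicates. The remaining HT29 arrays held the same treatments at days 1 and 8, with 2 arrays a group, and 6 arrays held Colo-205, a second colorectal cancer line, with 1 array a group.

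RAF kinases carry signals from RAS to MEK and then to the kinase ERK, which enters the nucleus and switches on immediate early genes, ETS transcription factors and the genes of its own inhibitors. A mutated BRAF can hold this cascade on without growth factors, and PLX4720 was designed to block that form of the kinase. In the colon, epithelial cells move from dividing crypt cells to absorptive enterocytes and mucus-secreting goblet cells, and loss of this program is common in colorectal tumors.

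All 12 HT29 arrays lay on 1 BeadChip. On the day 3 arrays between 18308 and 19102 of 47323 probes had a detection p under 0.01, and median raw intensities lay between 108 and 111. Replicates correlated across genes at 0.990 for DMSO and 0.991 for PLX4720. The SD of their difference was 0.33 and 0.31 on the log2 scale. All 18 genes of an epithelial list were detected on an array with PLX4720, and 16 of them on all 4 arrays, so the epithelial label was borne out. Among 14 fibroblast and smooth muscle markers, COL1A1, COL1A2, COL3A1, COL6A3, PDGFRB, FAP, THY1, MYH11 and DES were detected on no day 3 array. The summed intensity of the 4 tested members was nevertheless higher with PLX4720, at 586 and 589 against 302 and 293, and TAGLN, LUM and ACTA2 were the members that rose. The TAGLN call was lost without the first DMSO array or the second PLX4720 array, and that of ACTA2 without any 1 of the day 3 arrays. Of 8 endothelial markers, PECAM1, VWF, CDH5, KDR, CLDN5 and EMCN were detected on no array. The summed intensity of the 2 tested members was 774 and 796 with PLX4720 against 683 and 647. TEK was the member called higher, by 0.65 (limma, adjusted p = 0.00551). Its call was lost in 3 of 23 settings tried, among them the fit without the second PLX4720 array. Immune markers, with PTPRC, CD3D, CD3E, CSF1R, NKG7 and TYROBP on no array, had 4 tested members, none called, that summed to 15223 and 15663 against 14744 and 15194. The part of these markers in the results was not tested. In RNA from whole cultures, fewer cells of a type and less RNA per cell cannot be told apart.

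At day 3, 1135 genes were higher with PLX4720 (8.95% of those tested) and 956 were lower (7.54%), 2091 in all (16.5%), at an adjusted p under 0.05 in a limma fit with Benjamini-Hochberg adjustment. The counts of each gene list below stand against these shares of all genes, 8.95% higher and 7.54% lower. The median log2 difference over all genes was 0.01 and the median standard error 0.18. The smallest difference called was 0.35, and the median size of a called difference was 0.75. Large changes ran more often upwards, with 370 rises and 176 falls of more than 1 on the log2 scale, 44 and 15 of more than 2, and 11 and 3 of more than 3. Both PLX4720 arrays lay above both DMSO arrays for 4008 genes (31.6%) and below them for 3934 (31%). The number of genes called depended on each day 3 array. It was 854 without the first DMSO array, 1004 without the second, 979 without the first PLX4720 array and 824 without the second. Of the 288 called genes named by rule, 166 kept their call in all 4 of these fits, and where a gene named below lost it, this is stated.

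The gene with the largest rise was SPINK1, a secreted trypsin inhibitor. Its normalized log2 intensity was 8.05 and 7.91 on the DMSO arrays and 12.75 and 12.74 on the PLX4720 arrays. Treatment separated the arrays far more widely than replication did, and the rise was 27.2-fold (log2 4.77 ± 0.14 SE, adjusted p = 4.34e-07). ATP10B, a lipid-transporting ATPase, stood at 4.61 and 5.21 with DMSO and at 8.92 and 8.90 with PLX4720. The gene was detected on 1 of the 2 DMSO arrays and the groups were well apart, at 16-fold (log2 4.0 ± 0.22, adjusted p = 1.8e-05). SLC23A3, an orphan member of the ascorbate transporter family, rose from 5.81 and 5.60 to 9.24 and 9.21, and its 2 arrays with PLX4720 were nearly equal (11.5-fold, adjusted p = 3.11e-06). Further rises were found for ATP6V1B1, a subunit of the vacuolar proton pump (11.2-fold), for the lipocalin APOD (12.3-fold), for the matrix protein MATN2 (10.0-fold) and for HPGD, which inactivates prostaglandins (7.79-fold).

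CALB2, the calcium-binding protein calretinin, fell the most. It stood at 11.29 and 11.24 with DMSO and at 7.28 and 7.37 with PLX4720. The replicates in each group were nearly equal, and the gene was 15.4-fold lower (log2 -3.94 ± 0.11, adjusted p = 4.34e-07). NNMT, which methylates nicotinamide, had 8.09 and 8.04 with DMSO and 4.62 and 4.33 with PLX4720. It was not well above background on either PLX4720 array, so the fall was at least 11.3-fold. ADAM19, a membrane metalloprotease, fell from 8.93 and 9.07 to 5.82 and 6.04, which was 8.39-fold. Calls for all 15 of the largest rises and all 15 of the largest falls held without any 1 of the day 3 arrays. Their size depended on the background correction, which enlarges differences of dim probes. Without it the 15 rises lay between 1.45 and 4.38 and the falls between -3.39 and -1.0. Of the 288 called genes named by rule, 68 had a fold that moved by over 1.5 times without it. Lower bounds given as "at least" hold for the background-corrected values. Several genes have more than 1 probe, and with the mean of the probes in place of the brightest one the difference was -2.14 for CALB2, 2.03 for MATN2, 2.56 for KLK12, -1.03 for ETV5, 0.87 for RETNLB and 0.74 for LFNG.

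**Figure D1:**
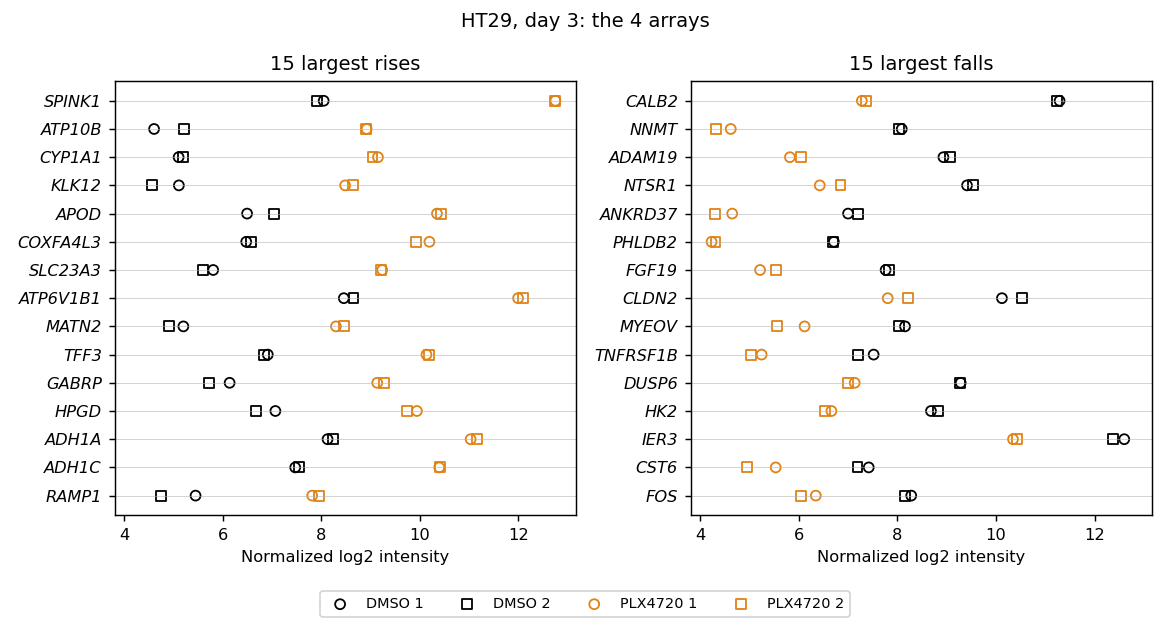
Normalized log2 intensity (x axis) of the 15 genes with the largest rise (left) and the 15 with the largest fall (right) at day 3, 1 row per gene. Black symbols are the 2 DMSO arrays and orange symbols the 2 PLX4720 arrays (SPINK1 at 8.05 and 7.91 against 12.75 and 12.74). Circles mark replicate 1 and squares replicate 2. Only called genes whose groups do not overlap were eligible, so the separation in every row follows from that choice.

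Feedback inhibitors that ERK induces fell in part, and none was called higher. The list of dual-specificity phosphatases, Sprouty and SPRED genes also held ERRFI1 and IL17RD. Of its 11 tested members 4 fell and 0 rose, with a median log2 difference of -0.50. DUSP6, the phosphatase that inactivates ERK in the cytoplasm, stood at 9.28 and 9.27 with DMSO and at 7.13 and 7.0 with PLX4720. It was 4.63-fold lower (log2 -2.21 ± 0.17, adjusted p = 0.000107), with no overlap of the arrays. ERRFI1, an inhibitor of the EGF receptor, went from 10.05 and 10.05 to 8.54 and 8.49. SPRY4 (2.19-fold) and SPRY1 (1.49-fold) also fell, and the SPRY1 call was lost without any 1 of the day 3 arrays, which left 3 members lower. The other 7 members, among them SPRY2 (0.12), DUSP1 (0.11) and DUSP5 (-0.39), did not pass the test. Among the kinases and adaptors of the cascade itself, 1 of 15 was called (6.67% lower, against 7.54% of all genes). This was HRAS, which fell by 0.91, and 1 or 2 members were called without 1 of the day 3 arrays. The HRAS call was lost with the mean of its probes (-0.48, adjusted p = 0.0731).

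ETS factors moved both ways, with 2 of 10 lower and 4 higher. ETV5, a PEA3-group factor that ERK signalling induces, had 8.45 and 8.37 with DMSO and 6.66 and 6.64 with PLX4720 (3.39-fold lower, adjusted p = 2.75e-05). ETV4, of the same group, fell 2.82-fold (adjusted p = 0.00383). ELF3, an epithelial ETS factor, rose from 9.65 and 9.87 to 10.94 and 10.84 (2.19-fold, adjusted p = 0.000602). The calls of ETS2, ELF1 and ETV6, which were all higher by less than 1.5-fold, were lost without any 1 of the day 3 arrays, which left 1 member higher.

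Of 20 AP-1 and immediate early genes, 6 fell (30%) and 2 rose (10%), against 7.54% and 8.95% of all genes. FOS stood at 8.28 and 8.15 with DMSO and at 6.35 and 6.05 with PLX4720 (4.05-fold lower, adjusted p = 0.000145). IER3, an immediate early gene linked to cell survival, was among the brightest genes of the list, at 12.60 and 12.37 against 10.35 and 10.43 (4.28-fold lower). EGR1, a zinc finger factor, fell by 1.09. FOSL1, an AP-1 subunit detected on 1 of the 2 PLX4720 arrays, fell by 1.20, and its call was lost without the first DMSO array or the second PLX4720 array. JUN (0.72) and ATF3 (0.71) were the members that rose, and neither was called without any 1 of the day 3 arrays. Without 1 of those arrays 3 to 5 members of the list were lower and 0 higher.

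MYC, the growth-promoting transcription factor downstream of several mitogenic pathways, had 11.46 and 11.19 with DMSO and 10.44 and 10.09 with PLX4720. The arrays did not overlap, and the gene was 2.08-fold lower (adjusted p = 0.0113). The call was lost without the first DMSO array or the second PLX4720 array. MXD4, a MAX partner that opposes MYC, rose from 9.03 and 8.94 to 10.25 and 10.27 (2.42-fold). No other member of the list of 11 MYC, MAX and MXD genes was called, among them MAX (0.18) and MNT (0.00). Each direction held 9.09% of the list, against 7.54% lower and 8.95% higher over all genes.

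Factors that build ribosomes fell, and none rose. In this list 21 of 39 tested genes were lower and 0 higher, against 7.54% of all genes lower, and the median was -0.51. NOLC1, a nucleolar chaperone of snoRNP assembly, had 8.65 and 8.51 with DMSO and 7.47 and 7.55 with PLX4720 (2.10-fold lower, adjusted p = 0.00159). BOP1, which processes the large-subunit rRNA, stood at 11.07 and 10.97 against 10.06 and 10.09. NOP16, NOP56 and the rRNA methyltransferase NOP2 fell by 1.06, 0.89 and 0.79. Without 1 of the day 3 arrays the count lay between 10 and 14. The E-box CACGTG, the site bound by MYC with MAX, was searched on both strands of promoter windows from RefSeq (GRCh38.p14), from 250 bases before to 50 bases after the first listed start. It lay in 14 of 32 list members with a window (43.8%) and in 7.43% of all 27305 windows. Of the 10089 tested genes with a window, 10.1% held it. The share was 12.6% for genes lower at day 3, 8.39% for genes higher and 9.99% for genes not called. A match in such a window is a description and not a site shown to be used. Shown here are the stretches around the E-box in 4 fallen members that hold one, taken from those with the lowest adjusted p, with the motif in capitals. Whether MYC had a part in these falls was not tested. NOP2 lies at chr12:6568242-6568268 on the minus strand, BYSL at chr6:41921515-41921544 on the plus strand, MRTO4 at chr1:19251807-19251836 on the plus strand and FBL at chr19:39846356-39846385 on the minus strand.
NOP2: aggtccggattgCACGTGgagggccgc
BYSL: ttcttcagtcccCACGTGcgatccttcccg
MRTO4: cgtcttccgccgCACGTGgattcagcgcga
FBL: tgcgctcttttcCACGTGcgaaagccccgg
In these genes the E-box began at base 36, 29, 15 and 7, counted from 1 at the start. BYSL, MRTO4 and FBL were picked by this search after their values were seen. They fell by 0.87, 1.07 and 0.71 (adjusted p = 0.0043, 0.0045 and 0.00512).

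Polyamines, small cations needed for growth, are made by enzymes of which several are MYC targets. In this list 5 of 16 fell (31.2%) and 1 rose (6.25%), against 7.54% and 8.95% of all genes. SRM, spermidine synthase, had 8.82 and 9.0 with DMSO and 7.64 and 7.71 with PLX4720, and the arrays were well apart (2.35-fold lower, adjusted p = 0.000219). MTAP, which recycles the by-product of polyamine synthesis, fell 2.35-fold, and EIF5A, the protein that carries the polyamine-derived residue hypusine, fell 1.61-fold. ODC1, the first enzyme of the pathway, fell by 0.76, and the call was lost without the first DMSO array or the second PLX4720 array. The calls of SAT1 (-0.77), which acetylates polyamines, and of SAT2 (0.67) were lost without any 1 of the day 3 arrays.

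The list with the largest share of fallen members was glycolysis, in which 15 of 20 tested genes were lower and 0 higher, with a median of -0.69. HK2, the hexokinase that commits glucose to the pathway, stood at 8.68 and 8.82 with DMSO and at 6.66 and 6.53 with PLX4720 (4.47-fold lower, adjusted p = 2.54e-05). SLC2A1, the glucose transporter GLUT1, had 12.63 and 12.64 against 11.07 and 11.07. Its replicates were equal to within 0.01 on the log2 scale and the fall was 2.95-fold. PFKP, a phosphofructokinase, fell by 1.16, ALDOC, an aldolase, by 1.46 and PKM, pyruvate kinase, by 0.94. GAPDH, often used as a reference gene, stood at 13.68 and 13.61 with DMSO and at 13.04 and 13.22 with PLX4720. It fell 1.43-fold (adjusted p = 0.017), and this call was lost without either DMSO array or the first PLX4720 array. ACTB, a second common reference, differed by -0.21 (adjusted p = 0.238). The count of fallen genes was 8 or 9 without 1 of the day 3 arrays.

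Hypoxia-induced genes outside glycolysis were lower in 11 of 21 cases and higher in 1, with a median of -0.65. ANKRD37, a hypoxia-induced ankyrin repeat gene, had 7.0 and 7.20 with DMSO and 4.65 and 4.30 with PLX4720. It was not well above background on either PLX4720 array, so the fall was at least 5.73-fold. BHLHE40, a transcription factor induced by low oxygen and detected on 1 of the 2 PLX4720 arrays, went from 6.95 and 7.17 to 5.40 and 4.99 (3.64-fold lower). EGLN1, an oxygen-sensing hydroxylase, fell by 1.14 and COXFA4L2, a cytochrome oxidase-related protein, at least 2.95-fold. PLOD2, a collagen hydroxylase, fell by 0.76, and its call was lost without the second array of either treatment. It was also lost with the mean of its probes (-0.62, adjusted p = 0.101). The exception was NDRG1, a gene induced by stress and differentiation, which rose from 9.75 and 10.33 to 11.14 and 11.03 (2.06-fold, adjusted p = 0.00567). Without 1 of the day 3 arrays 4 to 10 members were lower.

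TXNIP and ARRDC4, arrestin-domain proteins that limit glucose uptake, were higher. TXNIP stood at 10.73 and 10.74 with DMSO and at 12.60 and 12.73 with PLX4720 (3.81-fold, adjusted p = 2.54e-05). ARRDC4 had 5.98 and 6.10 against 8.23 and 7.84 (3.99-fold, adjusted p = 0.000118). The groups of both genes were far apart. Their relatives ARRDC3 (0.25) and ARRDC2 (-0.36) did not pass the test.

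In the list of pentose phosphate, glycogen and gluconeogenesis genes 4 of 15 rose and 0 fell, with a median of 0.04. Without background correction 3 members were called lower, and without 1 of the day 3 arrays 3 were higher and 0 or 1 lower. FBP1, a gluconeogenic phosphatase that works against glycolysis, had 10.78 and 10.96 with DMSO and 11.88 and 11.84 with PLX4720 (1.99-fold, adjusted p = 0.000655). PYGL and PYGB, glycogen phosphorylases, rose 2.10-fold and 2.11-fold. PGM1 rose by 0.43, and this call was lost without any 1 of the day 3 arrays.

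None of 38 nuclear-encoded subunits of the respiratory chain was called in either direction by limma at day 3, with a median of 0.08, and 3 were higher and 0 lower at an unadjusted p under 0.05. In the tricarboxylic acid cycle and its pyruvate entry 5 of 27 rose and 2 fell, or 2 to 3 and 0 to 1 without 1 of the day 3 arrays. The shares were 18.5% and 7.41%, against 8.95% higher and 7.54% lower over all genes. The falls were thus near the share of all genes. PDK4, the kinase that keeps pyruvate out of the cycle, rose from 6.77 and 7.31 to 8.42 and 8.35 (2.54-fold, adjusted p = 0.00184), and SUCLG2, a subunit of succinyl-CoA ligase, rose by 0.92. Fatty acid oxidation had 7 of 28 members higher (25%) and 1 lower (3.57%). ECI2, ACSL5 and ACADM, which activate or break down fatty acids, rose by 0.97, 0.97 and 0.87. ACADSB, an acyl-CoA dehydrogenase, was not well above background on either PLX4720 array and was at least 2.04-fold lower. In cholesterol and fatty acid synthesis 4 of 25 fell (16%) and 2 rose (8%), and the rises were near the share of all genes. FASN, the fatty acid synthase, had 12.13 and 12.17 with DMSO and 11.19 and 11.15 with PLX4720, and ELOVL6, an elongase, fell by 0.95. TM7SF2, a sterol reductase, rose by 0.97 and ACSS2, an acetyl-CoA synthetase, by 0.78, a call that was lost with the mean of its probes (0.52, adjusted p = 0.104). Without 1 of the day 3 arrays 4 fatty acid oxidation genes were higher and 2 or 3 synthesis genes lower. Without background correction 9 synthesis genes were lower and 5 higher.

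Amino acid supply and ER stress genes were lower in 15 of 37 cases and higher in 2, with a median of -0.36. MTHFD2 and SHMT2, enzymes of mitochondrial folate metabolism, fell by 0.90 and 0.69. SLC1A5, a glutamine transporter, had 10.39 and 10.42 with DMSO and 9.61 and 9.58 with PLX4720. ALDH18A1, a proline synthesis enzyme, went the opposite way and rose by 0.75, a call that was lost without the first PLX4720 array. Between 7 and 11 members were lower and 0 or 1 higher without 1 of the day 3 arrays.

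Goblet cell genes formed one of the lists with most rises. In the list of trefoil factors and goblet cell genes 10 of 19 tested members were higher and 1 lower, against 8.95% and 7.54% of all genes, and the median was 0.87. TFF3, a trefoil peptide of goblet cell mucus, had 6.91 and 6.83 with DMSO and 10.13 and 10.19 with PLX4720. Replicates were close and the rise was 9.76-fold (log2 3.29 ± 0.32, adjusted p = 0.000354). RETNLB, a goblet cell peptide of host defence detected on 1 of the 2 DMSO arrays, went from 5.14 and 4.92 to 6.54 and 6.80 (3.12-fold). FCGBP, an Fc-binding mucus protein, went from 6.75 and 6.86 to 8.40 and 8.45 (3.07-fold). SPDEF, a transcription factor of goblet cell maturation, went from 5.55 and 5.66 to 6.99 and 7.0 (2.62-fold, adjusted p = 0.0016). In all of these the PLX4720 arrays lay above the DMSO arrays. TFF1 was the member called lower, by 0.90, and this was lost without any 1 of the day 3 arrays. Without 1 of the arrays 7 or 8 members were called higher. Among 7 tested mucins, the membrane mucins MUC1 and MUC13 rose 6.16-fold and 2.96-fold. MUC1 had 8.00 and 8.07 with DMSO and 10.71 and 10.62 with PLX4720. MUC6 (0.51), MUC4 (-0.11) and MUC12 (-0.60) did not pass. MUC2, the main gel-forming mucin of the colon, did not pass the filter on dim probes.

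Absorptive markers rose in 9 of 28 cases (32.1%) and fell in 2 (7.14%), against 8.95% and 7.54% of all genes. The median was 0.25, and without 1 of the day 3 arrays 5 to 7 rose and 1 to 3 fell. SLC51A, a bile acid exporter subunit, was not well above background on either DMSO array, at 4.39 and 4.52, and reached 5.95 and 6.0 with PLX4720. That rise was at least 2.72-fold. ESPN, an actin bundler of the brush border, rose at least 2.54-fold. LGALS4, a galectin of intestinal epithelium, had 11.80 and 12.04 against 12.67 and 12.70 (1.70-fold). PLS1, an actin bundler of microvilli, rose by 0.77, and VIL1, villin, by 0.49. The VIL1 call was lost without any 1 of the day 3 arrays. ABCG2, an efflux pump, fell by 0.87, and SLC5A1, the sodium-glucose cotransporter, fell by 0.73, a call that was lost without either DMSO array or the first PLX4720 array. KRT20, a keratin of mature colon cells, had 10.66 and 10.88 with DMSO and 10.92 and 10.89 with PLX4720 and was not called (0.13, adjusted p = 0.564). PDZK1, a scaffold for membrane transporters that lies outside this list, rose from 7.10 and 7.22 to 9.06 and 9.19 (3.89-fold, adjusted p = 2.54e-05).

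Of 22 intestinal transcription factors, 6 rose (27.3%) and 2 fell (9.09%), against 8.95% and 7.54% of all genes. There were 3 to 5 rises and 0 or 1 fall without 1 of the day 3 arrays. CDX1, a homeobox factor of intestinal identity, stood at 4.31 and 4.30 with DMSO, not well above background, and at 5.58 and 5.74 with PLX4720. The rise was at least 2.23-fold (adjusted p = 0.00413). Its relative CDX2 was at least 1.75-fold higher (adjusted p = 0.0497), but the call was lost without any 1 of the day 3 arrays. HNF4G, a nuclear receptor of enterocytes, had 7.05 and 7.31 against 8.49 and 8.43 (2.42-fold). KLF4 (-0.02), KLF5 (0.56) and SOX9 (0.25) were not called.

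Markers of stem and progenitor cells rose as well, in 5 of 16 cases with 0 lower, or in 3 to 4 cases without 1 of the day 3 arrays. ASCL2, a transcription factor of crypt base stem cells, had 8.94 and 9.17 with DMSO and 10.94 and 11.10 with PLX4720 (3.89-fold, adjusted p = 0.000117). PROM1, the surface protein CD133, went from 8.76 and 8.90 to 11.11 and 10.91 (4.55-fold), and CD24, a surface glycoprotein, from 11.80 and 11.98 to 13.14 and 13.15 (2.39-fold). The arrays of the 3 genes did not overlap. LGR5, the receptor that marks crypt base stem cells, was close to background, at 5.21 and 5.26 against 5.38 and 5.64, and was not called (0.28, adjusted p = 0.617). In the Notch and secretory fate list 4 of 20 rose and 0 fell. LFNG, which modifies Notch, rose 2.66-fold, HES6, a neurogenic HES factor, 1.84-fold and DLL1, a Notch ligand, at least 2.48-fold. NOTCH1 (0.92) lost its call without any 1 of the day 3 arrays. WNT11, a Wnt ligand, was not well above background with DMSO, at 4.57 and 4.28, and had 6.86 and 7.07 with PLX4720 (at least 5.46-fold, adjusted p = 0.000538). AXIN2, a feedback target of Wnt, rose by 0.53, a call lost without any 1 of the day 3 arrays. Without background correction the differences of WNT11, SLC51A, ESPN, CDX1 and DLL1, all near background with DMSO, were 1.08, 0.53, 0.48, 0.49 and 0.52. DKK1, a secreted Wnt inhibitor, fell by 1.39, a call lost without the first DMSO array or the second PLX4720 array. In the enteroendocrine program PAX4 and SCG5 were called higher among 10 tested members, and 0 or 1 was without 1 of the arrays.

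**Figure D2:**
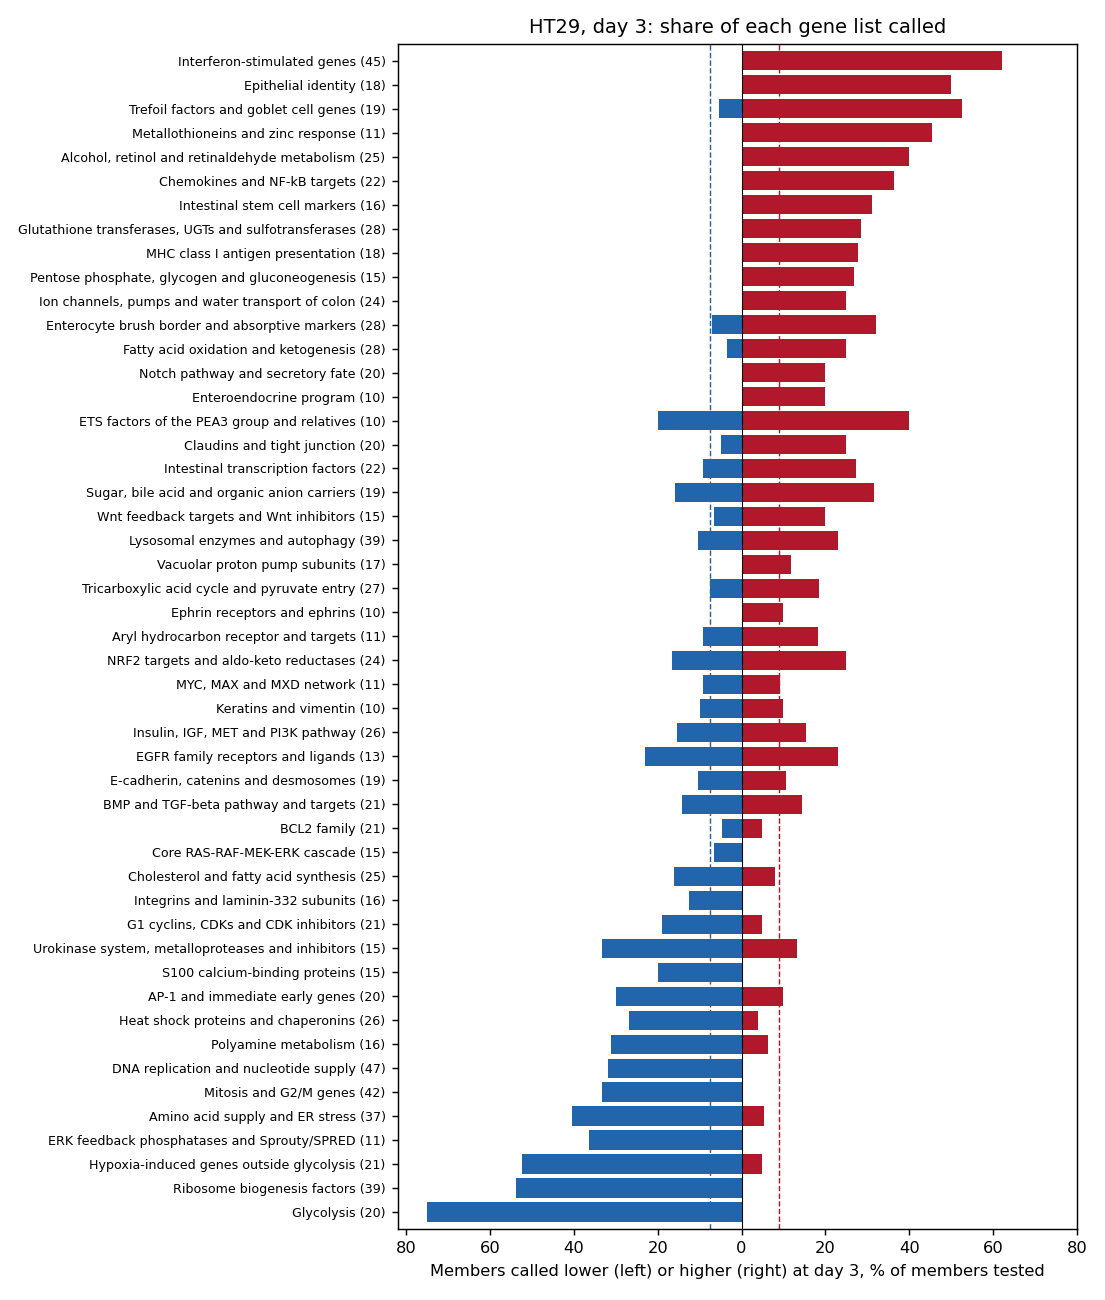
Share of tested members that was called lower (blue, to the left) or higher (red, to the right) at day 3, in percent, for each gene list with at least 10 tested members and at least 1 called, with the number tested in brackets. Dashed lines mark the shares over all genes, 7.54% lower and 8.95% higher; glycolysis with 15 of 20 lower and interferon-stimulated genes with 28 of 45 higher lie at the ends.

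Interferon-stimulated genes held the largest share of rises among the lists with at least 10 tested members. Of 45 tested members 28 rose and 0 fell, and the median was 0.68. IFI44L, induced by type I interferon, had 8.30 and 8.55 with DMSO and 10.27 and 10.15 with PLX4720 (3.45-fold, adjusted p = 0.00045). IFI6, an interferon-induced mitochondrial protein, stood at 12.15 and 12.03 against 13.27 and 13.04 (2.09-fold). GBP2, a guanylate-binding protein, IFI35 and the ISG15-conjugating enzyme UBE2L6 rose 2.02-fold, 1.88-fold and 2.06-fold. In each of these the PLX4720 arrays were above the DMSO arrays. Well-known members such as ISG15 (0.03), MX1 (0.49), OAS1 (0.30) and IRF7 (-0.12) did not pass the test. The count lay between 12 and 14 without 1 of the day 3 arrays.

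The interferon-stimulated response element was searched as GAAA, any pair of bases and GAAA on both strands of the same promoter windows. It lay in 23 of 36 list members with a window (63.9%) and in 3.65% of all windows. Of the 10089 tested genes with a window, 2.91% held it. Stretches before the start of 4 risen members that hold it, taken from those with the lowest adjusted p, are printed with the motif in capitals, since this is the sequence the list is known for. The stretch of IFI44L is chr1:78620350-78620409 on the plus strand. The others, all on the minus strand, are chr1:27672251-27672310 for IFI6, chr11:320861-320937 for IFITM3 and chr13:42992257-42992316 for EPSTI1.
IFI44L: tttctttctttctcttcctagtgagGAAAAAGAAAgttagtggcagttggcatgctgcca
IFI6: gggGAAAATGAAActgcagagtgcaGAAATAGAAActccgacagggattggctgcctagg
IFITM3: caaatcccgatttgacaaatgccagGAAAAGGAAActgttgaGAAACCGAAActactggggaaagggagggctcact
EPSTI1: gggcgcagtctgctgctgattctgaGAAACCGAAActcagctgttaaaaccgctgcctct
IFITM3 (0.76, adjusted p = 0.00891) and EPSTI1 (0.98, adjusted p = 0.00895) were picked by this search after their values were seen. The IFITM3 call was lost without either DMSO array or the second PLX4720 array, and that of EPSTI1 without the second DMSO array or the first PLX4720 array.

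Genes of MHC class I presentation rose in 5 of 18 cases and fell in 0, with a median of 0.42. HLA-B, a classical class I heavy chain, had 5.95 and 5.5 with DMSO and 7.76 and 7.42 with PLX4720 (3.63-fold, adjusted p = 0.00312). B2M, the light chain, rose by 0.55 from a high level of 12.83 and 12.76. The calls of TAPBP, PSMB9 and TAPBPL were each lost without the first DMSO array or 1 of the PLX4720 arrays, that of B2M without any 1, and the count lay between 1 and 4. It was 9 without background correction. The PSMB9 call was also lost with the mean of its probes (0.73, adjusted p = 0.0575). Among chemokines and NF-kB targets 8 of 22 rose and 0 fell, or 3 to 4 without 1 of the arrays. CXCL10, an interferon-induced chemokine, went from 6.84 and 6.23 to 8.58 and 8.44 (3.94-fold, adjusted p = 0.00102). LCN2, which binds bacterial siderophores, rose 2.17-fold and CCL20, a chemokine of intestinal epithelium, 2.76-fold. Outside the list, CFB, complement factor B, rose 3.18-fold and TNFRSF1B, a TNF receptor, fell 4.67-fold.

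CYP1A1, a monooxygenase that is the classical target of the aryl hydrocarbon receptor, stood at 5.11 and 5.19 with DMSO and at 9.15 and 9.04 with PLX4720. The rise was 15.4-fold (log2 3.95 ± 0.21, adjusted p = 1.8e-05). CYP1B1, a related target, had 8.59 and 8.52 against 9.89 and 9.76 (2.41-fold). SLC7A5, an amino acid transporter kept on the same list, fell by 1.29, and no other of the 11 tested members was called, while 4 were higher without background correction. The core of the response element, GCGTG, lay in 7 of 9 list members with a window (77.8%) and in 36.3% of all windows. Of the 10089 tested genes with a window, 49.3% held it. Among the called members, the risen CYP1A1 and the fallen SLC7A5 both held it, and CYP1B1 had no window. For CYP1A1 the stretch at chr15:74725556-74725610 on the minus strand holds 1 core, in capitals.
CYP1A1: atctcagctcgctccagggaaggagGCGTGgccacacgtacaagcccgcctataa

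Genes of alcohol, retinol and retinaldehyde metabolism rose in 10 of 25 cases and fell in 0, with a median of 0.37, and in 5 to 7 cases without 1 of the day 3 arrays. ADH1A, an alcohol dehydrogenase, had 8.13 and 8.24 with DMSO and 11.03 and 11.16 with PLX4720 (7.52-fold, adjusted p = 8.15e-06). ADH1C rose 7.40-fold. Both have close relatives in sequence, as have HSPA1A and the AKR1C, MT1, GSTM and IFITM genes, and their probes may share signal. ALDH1A3, which makes retinoic acid from retinaldehyde, went from 9.05 and 8.64 to 11.48 and 11.32 (5.88-fold), and BCO1, which cleaves beta-carotene, from 4.99 and 4.86 to 6.87 and 6.99 (4.02-fold). Replicates lay close together beside the differences between treatments. RARRES1, named for its response to retinoic acid, rose from 10.79 and 10.75 to 13.33 and 13.30 (5.85-fold, adjusted p = 1.8e-05).

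Conjugating enzymes rose in 8 of 28 cases and fell in 0, or in 2 to 3 cases without 1 of the day 3 arrays. MGST3, a membrane glutathione transferase, had 10.32 and 10.21 with DMSO and 11.13 and 11.13 with PLX4720. Of 24 NRF2 targets and aldo-keto reductases, 6 rose and 4 fell, or 3 to 4 and 2 without 1 of the day 3 arrays. AKR1C2, which reduces steroids, rose 3.89-fold, with DMSO replicates that differed (7.93 and 7.01 against 9.59 and 9.27). SLC7A11, the cystine transporter, was not well above background on either PLX4720 array and was at least 3.22-fold lower, and ME1, malic enzyme, fell by 1.07. Among 11 metallothionein and zinc response genes 5 rose and 0 fell, or 2 to 4 without 1 of the arrays. MT2A, which binds zinc and copper, went from 9.39 and 9.40 to 10.44 and 10.73 (2.28-fold).

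Of 39 lysosomal and autophagy genes, 9 were higher and 4 lower (23.1% and 10.3%, against 8.95% and 7.54% of all genes), or 3 to 4 and 1 to 2 without 1 of the day 3 arrays. NPC2, which carries cholesterol inside lysosomes, rose 2.00-fold, and LAMP2, a lysosomal membrane protein, rose 1.62-fold. NPC1, the partner of NPC2 in cholesterol export, fell 1.81-fold.

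Secreted and membrane proteases moved both ways. In the list of kallikreins and their inhibitors 3 of 9 rose (33.3%) and 1 fell (11.1%), against 8.95% and 7.54% of all genes. The trypsin inhibitor SPINK1, described above, was 1 of the 3 risen members. KLK12, a kallikrein detected on 1 of the 2 DMSO arrays, had 5.11 and 4.56 with DMSO and 8.48 and 8.65 with PLX4720 (13.3-fold, adjusted p = 2.54e-05), and KLK11 rose 1.79-fold. KLK6 went from 12.61 and 12.60 to 11.51 and 11.50 (2.15-fold lower), and both directions stood out from the replicates. PLAUR, the urokinase receptor, had 7.89 and 7.89 against 6.59 and 6.47 (2.57-fold lower). The urokinase and metalloprotease list had 5 of 15 lower and 2 higher, or 2 to 3 and 1 to 2 without 1 of the day 3 arrays. MMP28, an epithelial metalloprotease, rose 2.79-fold.

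Junction genes changed one by one. CLDN2, a pore-forming claudin, fell from 10.12 and 10.52 to 7.80 and 8.22 (4.95-fold, adjusted p = 0.00123), while 5 of 20 claudin and tight junction genes rose, CLDN1 by 0.94. Without 1 of the day 3 arrays 0 to 2 of those rises were called, and that of CLDN1 was lost without the second DMSO array or the first PLX4720 array. CDH1, E-cadherin, had 11.35 and 11.41 with DMSO and 11.75 and 11.77 with PLX4720 and was not called (0.38, adjusted p = 0.147). EPCAM differed by -0.03 (adjusted p = 0.9). CDHR5, a protocadherin of microvilli, rose 2.63-fold and TSPAN8, an epithelial tetraspanin, 1.89-fold. KRT13, a keratin of stratified epithelia, had 8.81 and 8.82 against 10.52 and 10.64 (3.42-fold), and VIM, the mesenchymal intermediate filament, was not called (-0.29, adjusted p = 0.504). In the list of ion channels and pumps of the colon 6 of 24 rose and 0 fell, with a median of -0.06. Without 1 of the arrays 2 to 3 were higher and 0 or 1 lower, and without background correction 6 were called lower. KCNK5, a potassium channel, went from 6.39 and 6.79 to 8.18 and 8.26 (3.10-fold), and FXYD3, a regulator of the sodium pump, rose 3.71-fold.

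Several growth factor genes were among the changes. FGF19, a hormone-like growth factor of the gut, had 7.76 and 7.83 with DMSO and 5.21 and 5.54 with PLX4720 (5.35-fold lower, adjusted p = 0.000135). In the list of EGF receptors and ligands 3 of 13 rose and 3 fell, or 1 to 2 and 2 without 1 of the day 3 arrays. HBEGF, a ligand of the EGF receptor, went from 7.13 and 6.84 to 5.52 and 6.04 (2.30-fold lower). ERBB3, a receptor of the EGF receptor family, rose from 10.68 and 10.63 to 11.39 and 11.42 (1.68-fold). With the mean of its probes the difference was 0.30 and not called (adjusted p = 0.215). ERBB2 was higher by 0.68, a call lost without the first DMSO array or either PLX4720 array. In the insulin and PI3K list 4 of 26 rose and 4 fell (15.4% each, against 8.95% and 7.54% of all genes), or 3 to 4 and 2 without 1 of the day 3 arrays. PIK3IP1, an inhibitor of PI3K detected on 1 of the 2 DMSO arrays, rose 5.03-fold from 4.52 and 4.97 to 7.21 and 6.94. SESN1, a stress sensor that restrains mTOR, rose 1.98-fold and PIK3R1, the regulatory subunit, 1.73-fold, though PIK3R1 was not called with the mean of its probes (0.28, adjusted p = 0.151). IGFBP6, which binds insulin-like growth factors, fell 2.91-fold. TGFBI, a matrix protein induced by TGF-beta, fell from 10.85 and 10.81 to 9.64 and 9.63 (2.29-fold), and BMP2, a ligand of the same superfamily, rose 2.61-fold. NTSR1, the neurotensin receptor, fell 7.15-fold.

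Genes of DNA replication and mitosis fell in part, and none rose. CCND1, cyclin D1, had 9.93 and 9.74 with DMSO and 9.17 and 9.13 with PLX4720 (1.61-fold lower, adjusted p = 0.00791), and the call was lost without the first DMSO array or the second PLX4720 array. CDC25A, a phosphatase that activates CDKs, fell by 0.92, while the CDK inhibitor CDKN1B was higher by 0.63, a call lost without the first array of either treatment. CDKN1A was not called (0.45, adjusted p = 0.0683). In DNA replication and nucleotide supply 15 of 47 fell and 0 rose, with a median of -0.40, and MCM10, a replication initiation factor, fell by 0.84. In mitosis 14 of 42 fell and 0 rose, with a median of -0.35, and NUF2, a kinetochore protein, fell by 0.85. MKI67, the proliferation marker, had 6.08 and 6.77 with DMSO and 6.47 and 6.50 with PLX4720. Its arrays overlapped and it was not called (0.07, adjusted p = 0.902). The counts for both lists rested on all 4 arrays, since without 1 of them 2 to 5 replication genes and 1 to 5 mitosis genes were lower. Heat shock and chaperonin genes had 7 of 26 lower and 1 higher, or 0 to 2 and 0. Without background correction 24 replication genes, 21 mitosis genes and 15 heat shock and chaperonin genes were lower, and 1 replication gene was higher.

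The drug difference at day 3 was close to that at day 1 and less close to that at day 8. At day 1, 1500 genes were higher with PLX4720 (11.8% of those tested) and 1364 lower (10.8%), and at day 8, 929 were higher (7.33%) and 1093 lower (8.62%). Of the genes higher at day 3, 761 were also higher at day 1, which is 67% of the day 3 list and 50.7% of the day 1 list. Only 374 were higher at day 8 (33% and 40.3%), and 91 were lower then. Of the genes lower at day 3, 617 were lower at day 1 (64.5% and 45.2%) and 275 at day 8 (28.8% and 25.2%). Across genes, which are not independent replicates, the day 3 difference correlated with that of day 1 at a Pearson r of 0.69 and with that of day 8 at 0.36. The days share no arrays but share the BeadChip and the normalization. There were 435 genes called in the same direction on all 3 days, and 465 called at day 3 alone. The day 3 difference lay between those of the other days for 1009 of the 2091 called genes (48.3%), against 45.9% of all genes, so called genes held that middle position about as often as genes in general.

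**Figure D3:**
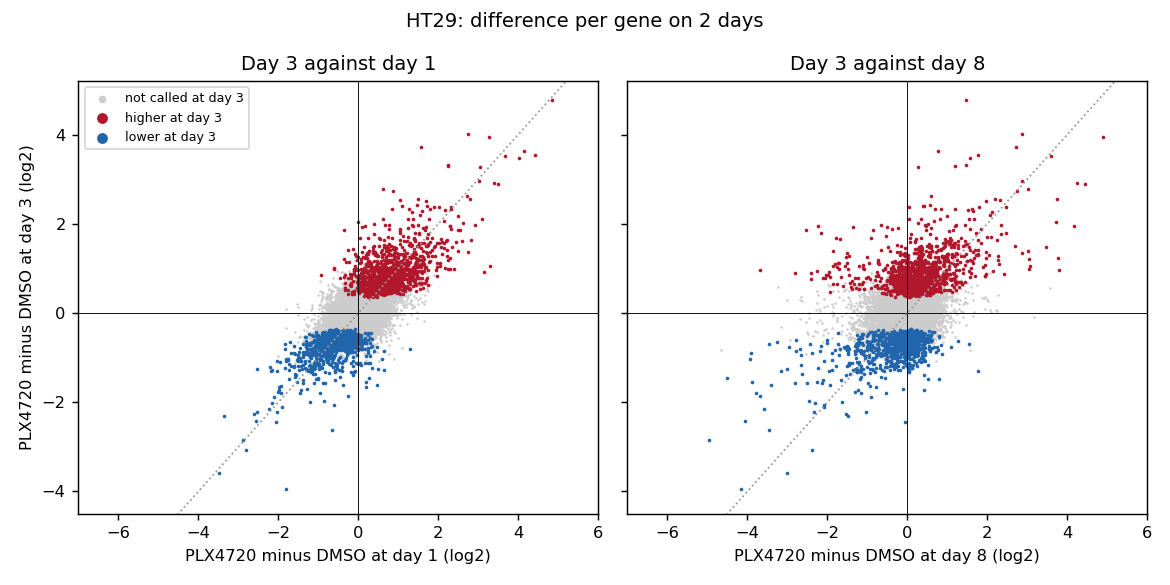
Log2 difference between PLX4720 and DMSO for each of 12675 genes at day 3 (y axis) against day 1 (left) and day 8 (right). Red points were called higher and blue points lower at day 3, the dotted line marks equal differences, and points lie closer to it against day 1 (Pearson r 0.69) than against day 8 (0.36).

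Tested directly and taken with its sign, the day 3 difference lay above that of day 1 for 9 genes (0.071%). It lay below that of day 1 for 16 (0.126%), which made 25 in all (0.197%). An unadjusted p under 0.05 was reached by 1485 genes. The count of 25 fell to between 1 and 10 when any 1 of the 12 HT29 arrays was left out. NDRG1 shows the direction of one such difference, with a drug difference of 3.30 at day 1 and 1.04 at day 3. Its level with PLX4720 was 10.96 and 11.08 on these days, and its level with DMSO went from 7.66 to 10.04. CALB2 went from -1.82 to -3.94, and KLK12 from 1.56 to 3.73. HEPACAM2, a gene of secretory cells in the intestine, showed no called difference at day 1 (-0.01) and was at least 3.73-fold higher at day 3.

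Between day 3 and day 8 the drug difference changed for 1072 genes (8.46%). Taken with its sign, it moved upwards for 449 (3.54%) and downwards for 623 (4.92%). The split was 297 to 689 with median centring in place of quantile normalization. Each array of day 3 and 3 of the 4 of day 8 mattered here. The total was 440 and 618 without the DMSO arrays of day 3, 527 and 461 without the PLX4720 arrays, 606 without the second DMSO array of day 8, and 451 and 482 without its PLX4720 arrays. Interferon-stimulated genes changed sign. Their median difference was 0.61 at day 1, 0.68 at day 3 and -1.60 at day 8, and 43 of 45 differed between days 3 and 8. IFI44L had a mean level with DMSO of 4.27, 8.42 and 11.45 at days 1, 3 and 8, and of 5.31, 10.21 and 9.30 with PLX4720. The level with DMSO was thus higher at each later day, and that with PLX4720 was highest at day 3.

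Hypoxia-induced genes widened their difference, from a median of -0.12 at day 1 to -0.65 and -2.21. For 15 of 21 the day 8 difference, taken with its sign, lay below that of day 3. COXFA4L2 had mean levels with DMSO of 4.34, 6.08 and 11.90 and with PLX4720 of 4.53, 4.42 and 4.42. The level with DMSO was thus higher on every later day, and that with PLX4720 stayed low at all 3. Glycolysis followed the same order, with medians of -0.42, -0.69 and -1.41. Ribosome biogenesis ran the other way, from -0.86 through -0.51 to 0.11. For 17 of 39 members the day 8 difference, taken with its sign, lay above that of day 3. NOP2 had mean levels with DMSO of 10.51, 10.37 and 9.22 and with PLX4720 of 9.37, 9.58 and 9.84. The differences of MYC were -1.49, -1.06 and 0.30. The mitosis list had its lowest median at day 3 (-0.08, -0.35 and -0.28), and the count called lower was 1, 14 and 8.

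Past both tests in opposite directions were 4 genes. The difference was highest at day 3 for the arrestin-domain gene ARRDC4 (0.38, 2.00 and 0.51 at days 1, 3 and 8), for the MHC region transcript HCP5 (0.16, 1.95 and -2.24) and for the nucleic acid sensor ZBP1, detected on 1 of the 2 DMSO arrays (-0.62, 0.99 and -1.49). It was lowest at day 3 for ACADSB (0.23, -1.11 and 0.05). Both tests use the day 3 arrays, so an error in those arrays would push a gene past both.

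**Figure D4:**
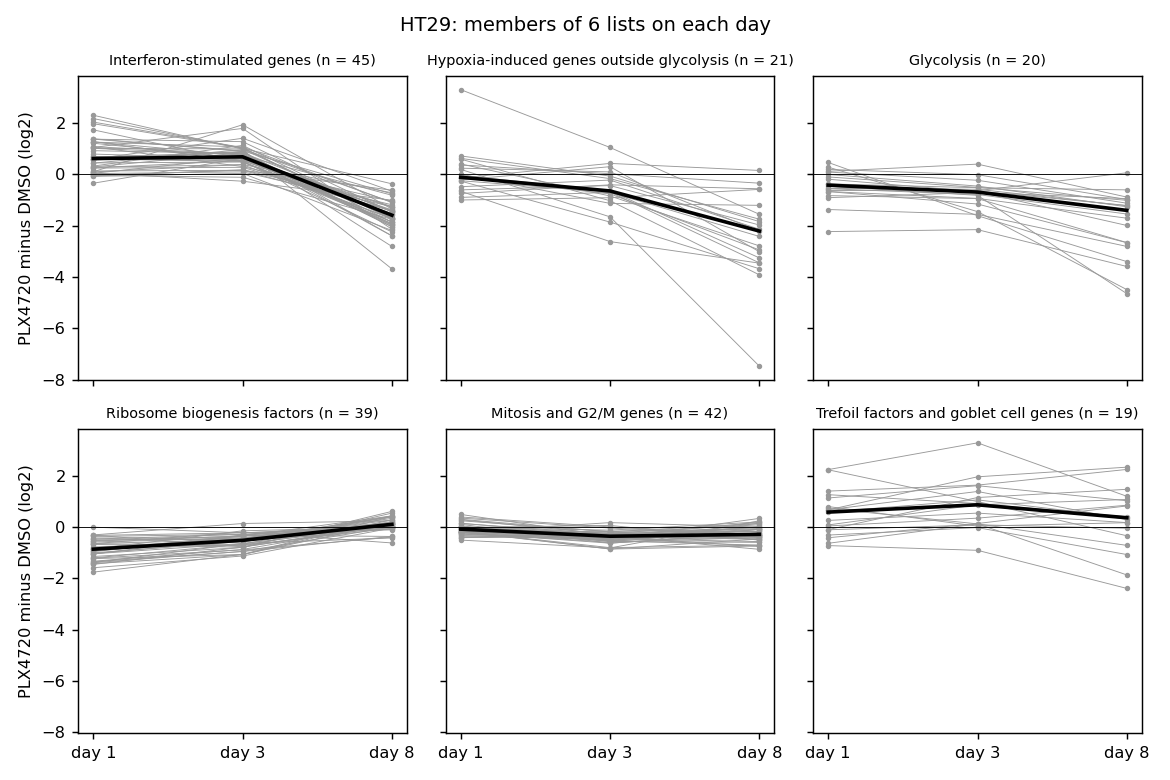
Log2 difference between PLX4720 and DMSO (y axis) at days 1, 3 and 8 for the tested members of 6 gene lists, 1 grey line per gene and a black line for the median. Interferon-stimulated genes go from a median of 0.68 at day 3 to -1.60 at day 8, hypoxia-induced genes from -0.65 to -2.21 and ribosome biogenesis factors from -0.51 to 0.11.

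In Colo-205 the same treatment and day had 1 array a side, so its differences are described without a test. Of the genes higher in HT29, 995 were detected in Colo-205 and 784 of these were higher there too (78.8%, against 50.5% of all 10878 detected genes). Of those lower in HT29, 754 of 896 were lower (84.2% against 49.5%). Their median differences were 0.39 and -0.39 in Colo-205, beside 0.82 and -0.68 over the genes called in HT29, by whose values they were chosen. SPINK1 (3.40), ATP10B (4.24), CYP1A1 (2.68), CALB2 (-4.25), ADAM19 (-2.98), DUSP6 (-1.96) and ETV5 (-3.03) had large differences of the same sign. TFF3 (0.28), KLK12 (0.04), ADH1A (-0.07) and MYC (0.06) were near 0. Of the 20 fallen ribosome biogenesis factors that were detected, 17 had the same sign. Of the 25 risen interferon-stimulated genes that were detected, 14 had the same sign, which is close to an even split.

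**Figure D5:**
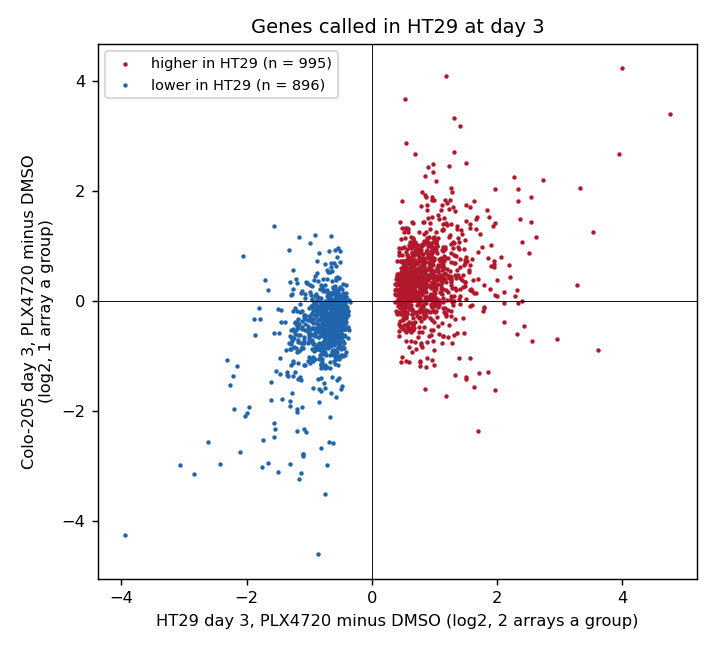
Log2 difference between PLX4720 and DMSO at day 3 in Colo-205 (y axis, 1 array a group) against HT29 (x axis, 2 arrays a group) for genes called in HT29 and detected in Colo-205. Red points (n = 995) were higher and blue points (n = 896) lower in HT29; 784 red points lie above 0 and 754 blue points below it.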

How the data were processed

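Total RNA was measured on Illumina expression BeadChips as labelled cRNA, per the labels' protocols. Every array has a column of linear intensity and one of detection p-values in the deposited table, per the file headers, over 47323 probes. A value was missing for 4 probes, which were dropped. The sources used here do not give the authors' method for the detection p-values. A table of the authors' processed intensity values was also deposited, with a normalization the same sources leave unstated, and served as an alternative.

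Background was corrected with limma 3.58.1 in R 4.3.3 (normexp from the detection p-values, offset 16). The 18 arrays were then quantile normalized together and put on the log2 scale. The precision is limited by the number of arrays. Probes needed a detection p under 0.01 on at least 2 HT29 arrays. Probes were named from the platform annotation, and 99.9% of the named ones were found in RefSeq. Of all probes, 30113 had 1 symbol, 8 had several and 17202 had no listed symbol. The probe with the highest mean stood for its gene; in called genes, 706 of 824 other probes had the same sign (85.7%). One limma fit of 6 group means over 12 HT29 arrays gave each difference and the differences between days, two-sided, with Benjamini-Hochberg adjustment, and it was tested on simulated data. A gene not detected on either array of a group has only a lower bound for its fold. It was computed from the mean of, per array, the higher of the array's lowest detected signal and the gene's own.

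The gene lists (58 lists, 1414 genes, of which 1315 had a named probe and 1080 were tested) and the comparison itself were chosen with earlier results of these data known. Genes named are the 15 highest and 15 lowest, up to 5 called members a direction in each list, members of the gene families, the 10 highest and lowest of each difference between days and those past both in opposite directions, the 10 lowest adjusted p a direction, and a fixed set of markers. The 15 highest and 15 lowest were taken among called genes with both PLX4720 arrays above or both below the DMSO arrays. Listed members that were not called were named to show that, and exceptions are stated. A leave-out of each HT29 array, other background corrections, normalizations, filters and designs were tried. Promoter windows and coordinates came from RefSeq (GRCh38.p14), and 79.6% of tested genes matched one. Motif shares of tested genes and of list members cover only those that matched, which were fewer than 80% of tested genes. Nothing shows that replicates of one number share a culture, and p-values measure only the spread between these cultures.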

Additional observations from a re-analysis of the deposited data

Results flagged for a closer look

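The results here are ones in which the drug difference itself differed between 2 days in HT29 by the limma test. The count was 25 genes between days 1 and 3 and 1072 genes between days 3 and 8.

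From day 1 to day 3 the log2 difference, taken with its sign, moved upwards by 2.17 for KLK12, 2.05 for HEPACAM2, 1.91 for TUBB3, 1.79 for HCP5, 1.61 for ARRDC4, 1.60 for ZBP1, 1.48 for PARM1, 1.41 for RCOR2 and 1.22 for RNASE1. It changed by -2.25 for NDRG1, -2.22 for CLIC3, -2.13 for CALB2, -1.96 for ANKRD37, -1.80 for SPACA9, -1.74 for IGFBP6, -1.73 for ALDOC, -1.49 for LGALS1, -1.45 for ANXA9 and -1.40 for TH. TUBB3, SPACA9, ANXA9 and TH were not called at day 3 itself, at 0.09, -0.17, 0.01 and 0.27.

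From day 3 to day 8 the difference moved upwards by 3.26 for RGS4, 3.06 for TMEM158, 3.01 for PRSS1, 2.83 for PAX4, 2.54 for ENPP2 and 2.40 for MGP. It changed by -5.82 for COXFA4L2, -4.65 for IFITM1, -4.39 for HLA-B, -4.19 for HCP5, -3.93 for IFI44L and -3.83 for ENO2. PRSS1, MGP and ENO2 were not called at day 3 itself, at 0.57, -0.83 and -0.82. RGS4 (-0.09) was not called at day 3 either and was not well above background in either group. The day 3 calls of CLIC3 and TMEM158 were lost without the first DMSO array or the second PLX4720 array of that day, that of PAX4 without either DMSO array or the second PLX4720 array, and that of IFITM1 without any 1 of the 4.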

How the results depend on the processing

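Over the 12 fits that each left out 1 HT29 array, the genes called at day 3 ranged from 824 to 2275. Those that differed between days 1 and 3 ranged from 1 to 10, and those between days 3 and 8 from 440 to 1285. A test for a change beyond 1.5-fold called 203 genes at day 3, and a fit of the 4 day 3 arrays alone called 1440. Of the other settings tried for the day 3 count, none moved it by over 1.5 times. The difference between days 1 and 3 gave 137 genes without background correction, 87 with normexp fitted without the detection p-values, 136 with the authors' processed values, 13 with no filter on dim probes, 13 with a detection p under 0.05 and 124 with an intensity trend. The difference between days 3 and 8 gave 1809 genes without background correction, 1842 with the authors' values and 1724 with the trend. The cause was not tested. No named gene's day 3 difference changed direction while called under any of these settings. Among the list medians given above, that of pentose phosphate, glycogen and gluconeogenesis genes changed sign. It was -0.02 with no filter on dim probes, and no other median given above changed sign. The correlation of same-numbered deviations was 0.00, 0.07 and 0.09 at days 1, 3 and 8, so same-numbered samples shared little deviation. It cannot show whether they were handled together. The fit with a replicate block called 2180, 10 and 1159 genes, against 2091, 25 and 1072 without it.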
